A study of Mus musculus with 12 samples.

Results

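The genes described here are 10 components and targets of Nodal and bone morphogenetic protein (BMP) signalling in mouse pluripotent cells: Nodal, Lefty1, Lefty2, Tdgf1, Smad7, Skil, Bmp4, Id1, Id2 and Id3. They were chosen by name, with earlier results of these data already known, out of 49554 RefSeq genes on the autosomes and the X chromosome. Everything that touched a gene or the 10 kb on either side of it was taken as belonging to that gene. This gave 29 of the 54825 bins listed for embryonic stem cells (ESCs) at either time, 20 of 21563 KLF4 peaks and 59 of 55466 H3K27ac peaks of induced pluripotent stem cells (iPSCs).

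Nodal is a ligand of the transforming growth factor beta family that signals through activin receptors and the co-receptor Cripto, the product of Tdgf1, to the transcription factors SMAD2 and SMAD3. The pathway switches on its own inhibitors: Lefty1 and Lefty2 encode secreted antagonists, SMAD7 blocks the receptors, and SKIL (also called SnoN) represses SMAD target genes. BMP4 signals through SMAD1 and SMAD5 instead, and its best known target genes are Id1, Id2 and Id3, whose proteins bind basic helix-loop-helix factors and keep them off DNA. In mouse ESCs, BMP4 together with leukaemia inhibitory factor holds back differentiation, and the Lefty genes are active in ESCs.

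The study measured acetylation of lysine 27 on histone H3 (H3K27ac), which marks active promoters and enhancers, and binding of KLF4, a zinc-finger activator of pluripotency genes, by chromatin immunoprecipitation and sequencing of 12 samples in 7 groups. V6.5 mouse ESCs carried a lentiviral Cas9 that doxycycline switches on, with guides that the labels describe as directed at KLF4 alone or at KLF2, KLF4 and KLF5. The lines were clones picked after puromycin selection, and the labels do not say how many clones were used. ESCs grew on irradiated feeder cells with serum and LIF, and every sample is labelled 2i, which adds MEK and GSK3 inhibitors. H3K27ac was measured without induction (0 h, 2 replicates, labelled wild type) and after 24 h of doxycycline (2 replicates, labelled both TKO and KLF4 KO), so every ESC carried the inducible Cas9, and which genes were cut is not settled by the labels. The iPSCs, also in 2i, had 2 replicates each for KLF4 and H3K27ac, and 4 input samples complete the series.

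The deposited data are 1 list per immunoprecipitated group, with no values per replicate and no read depth. No test across replicates was possible, and every difference below is between 2 lists. The ESC lists give 10 kb bins with an H3K27ac value, whose scale is not stated, and a whole number of unstated meaning, called the bin score here. A bin can be listed without a value, which here means an entry that is missing or not above a vanishingly small limit. Whether such an entry stands for no signal or for no measurement is not stated, so acetylation there was treated as unknown. The median value over all valued bins was 4.65 at 0 h and 4.05 at 24 h. Because the scaling between the lists is unknown, the relative value of a gene is the mean log2 of 24 h over 0 h in its bins valued at both times, minus the median of all 22739 such bins, which was -0.23. The pluripotency markers Pou5f1, Sox2, Nanog, Esrrb, Zfp42, Dppa3 and Tfcp2l1 all had ESC values at both times and peaks of both kinds in iPSCs. Their relative values were below 0 at all 7, as were those of 8943 of the 18458 genes with a relative value. The median of the 7 was -0.17 and none was past the threshold of 0.25 either way. The bin scores of these markers added up to 423 before and 351 after induction. Of 7 fibroblast genes, markers of feeder cells, 3 (Col1a1, Col3a1 and Loxl1) had an ESC value, up to 12.1 at 0 h and 10.7 at 24 h, both at Loxl1, and Col1a2, Thy1, Twist2 and Postn had none. Relative values were 0.35 at Col3a1, where the value was 6.15 at 0 h and 6.71 at 24 h, 0.04 at Loxl1 and -0.18 at Col1a1. The bin scores of the 7 genes added up to 41 before and 30 after induction, and the part of feeder cells in the values below was not tested.

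Nodal, Tdgf1 and Smad7 lay in strongly acetylated domains at both times, with relative values between -0.07 and -0.03. Skil and Id2 had moderate values, with relative values of 0.06 and 0.0037. Lefty2 and Id1 had values at 0 h that were much lower or missing at 24 h, while Lefty1, Bmp4 and Id3 had no H3K27ac value at either time. In counts, 7 genes had a valued bin at 0 h and 6 at 24 h, against 56.7% and 55.0% of protein-coding genes. Among the 6 genes with a relative value, 1 was at -0.25 or lower, as were 14.7% of all 18458 genes with a relative value, and none was at 0.25 or higher, against 15.2%. Their median was -0.05, beside 0.01 over all genes and -0.17 over the pluripotency markers.

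**Figure D1:**
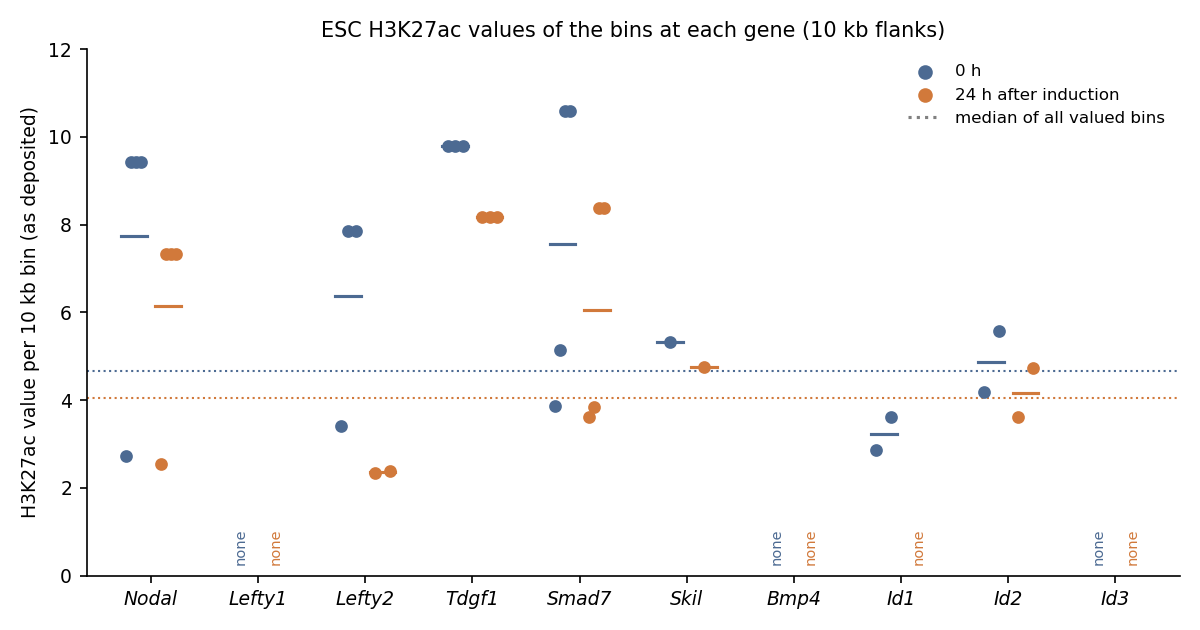
H3K27ac value of each 10 kb ESC bin that touches a gene or its 10 kb flanks (vertical axis, as deposited, unstated scale) for the 10 genes (horizontal axis). Points are bins at 0 h (blue) and 24 h (orange), short bars are means over bins, dotted lines are the medians of all valued bins (4.65 and 4.05), and "none" means that no bin had a value. Smad7, Tdgf1 and Nodal reach 10.6, 9.79 and 9.43 at 0 h, and Lefty2 is near 2.4 at 24 h.

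KLF4 peaks of iPSCs lay over the promoters of Tdgf1, Bmp4 and Id3, and the sequences of these promoters are shown because they are where the factor met a gene start directly. Promoter windows, from RefSeq for GRCm38.p6, run from 250 bases before to 50 bases after the gene start and were found for 5 of the 10 genes, namely these 3, Nodal and Id2. A KLF4 peak covered 189 of the 300 bases at Tdgf1, 145 at Bmp4 and 298 at Id3. Across the genome, 15.7% of 32851 promoter windows were overlapped by a KLF4 peak. The Id2 window, which no KLF4 peak overlapped, is added for comparison. Capitals mark matches on either strand to CCNCNCCC, a general form of the sites that KLF proteins bind, and all sequences run 5′ to 3′ on the strand of the gene.
Tdgf1 (chr9:110946109-110946408, minus strand): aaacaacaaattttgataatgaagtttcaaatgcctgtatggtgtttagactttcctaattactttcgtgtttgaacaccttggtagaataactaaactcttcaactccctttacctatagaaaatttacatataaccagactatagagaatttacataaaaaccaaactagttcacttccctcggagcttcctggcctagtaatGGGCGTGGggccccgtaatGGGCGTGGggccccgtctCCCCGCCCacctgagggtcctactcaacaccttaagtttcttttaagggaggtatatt
Bmp4 (chr14:46390620-46390919, minus strand): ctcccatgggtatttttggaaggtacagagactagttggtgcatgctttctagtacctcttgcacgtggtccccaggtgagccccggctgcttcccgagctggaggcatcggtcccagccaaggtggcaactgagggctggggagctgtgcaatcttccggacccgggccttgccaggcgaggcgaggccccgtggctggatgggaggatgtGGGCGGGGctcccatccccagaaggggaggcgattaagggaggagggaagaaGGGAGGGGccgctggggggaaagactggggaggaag
Id3 (chr4:136143572-136143871, plus strand): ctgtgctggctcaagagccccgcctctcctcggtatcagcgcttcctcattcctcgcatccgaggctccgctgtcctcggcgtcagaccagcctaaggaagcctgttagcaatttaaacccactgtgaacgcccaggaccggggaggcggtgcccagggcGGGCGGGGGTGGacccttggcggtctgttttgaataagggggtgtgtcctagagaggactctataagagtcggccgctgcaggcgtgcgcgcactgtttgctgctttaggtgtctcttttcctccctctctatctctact
Id2 (chr12:25096043-25096342, minus strand): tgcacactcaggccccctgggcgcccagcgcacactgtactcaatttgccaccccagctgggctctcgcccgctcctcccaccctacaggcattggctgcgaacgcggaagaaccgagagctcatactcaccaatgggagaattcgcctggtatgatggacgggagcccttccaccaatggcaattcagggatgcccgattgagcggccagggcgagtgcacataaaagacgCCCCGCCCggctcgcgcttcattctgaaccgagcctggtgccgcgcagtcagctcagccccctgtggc

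The motif matched 3 times in the Tdgf1 window, 2 times in that of Bmp4, 2 times with overlap in that of Id3, 1 time in that of Id2 and not in that of Nodal. At least 1 match was present in 49.5% of all promoter windows, in 86.0% of the 5150 that a KLF4 peak overlapped and in 42.7% of the others. The 3 Tdgf1 matches lie close together just before the gene start, and the first and second of them have the same letters, GGGCGTGG. A second motif, GGCGCC, a GC-rich element known from BMP-responsive Id promoters, reads the same on both strands. It matched 1 time in the Id2 window, without overlap with the capitals, and not in the windows of Nodal, Tdgf1, Bmp4 and Id3, against 11.9% of all windows. A match is a run of letters and does not show binding.

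Nodal (chromosome 10, 61417972 to 61425338), which encodes the ligand, lay in a block of high acetylation that covered the gene and the region upstream of it. The 3 bins from 61400001 to 61430000 shared the value 9.43 at 0 h and 7.34 at 24 h, and the last bin, which lies beyond the gene, had 2.72 and 2.55. The neighbouring gene Eif4ebp2 touches this bin and the one before it. The block stood above 92.8% of valued bins at 0 h and above 91.0% at 24 h. The relative value was -0.13 in the block and 0.13 in the last bin, with a mean of -0.07 (SD 0.13 over 4 bins). The 3 bins of the block may carry 1 measurement, and with the block counted as 1 bin the mean was -0.0004. The bin score came to 39 before and 44 after induction, of which 22 and 23 lay in the bin that holds the gene start. Nodal was the only gene of the 10 with a higher sum at 24 h. The exact 95% interval of its 24 h share, for counting error only, was 41.7 to 64.1%, which includes the 47.5% of all bins. How many of all genes had a higher sum at 24 h was not counted. In iPSCs 11 H3K27ac peaks covered 12468 bp, more than at 98.1% of protein-coding genes. All 3 KLF4 peaks at Nodal lay within H3K27ac peaks, centred 7667 and 1795 bases before and 770 bases after the gene start.

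Tdgf1 (chromosome 9, 110939608 to 110946158) encodes Cripto, a co-receptor through which Nodal signals. Its 3 valued bins shared 9.79 at 0 h and 8.16 at 24 h, so they give no spread, and the relative value was -0.03. This level stood above 93.9% of valued bins at 0 h and above 94.7% at 24 h. Another bin, beyond the end of the gene, was listed at both times without a value. The bin score came to 28 and 27 over the window. The bin of the gene start had 13 at 0 h and 9 at 24 h. The next bin upstream, which the gene Lrrc2 touches, had 7 and 10. Whether these bins differ beyond counting error was not tested. In iPSCs an H3K27ac peak of 11113 bp ran from within the gene to far upstream of it, and of the 55466 peaks 23 were wider. The 3 KLF4 peaks all lay in it, the first centred 18 bases after the gene start and the others 1541 and 5532 bases before it.

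Lefty2 (chromosome 1, 180893108 to 180899107), a feedback inhibitor of Nodal, had the largest difference between the times among the 6 genes with a relative value. At 0 h its 3 bins had values of 7.87, 7.87 and 3.41. At 24 h the first had 2.35, the second, which holds the gene itself, was not listed, and the third had 2.38. The relative value was -1.52 in the first bin and -0.29 in the third, with a mean of -0.91 (SD 0.87 over 2 bins), or 0.534 of the 0 h level after scaling. Lower relative values were found at 131 of the 18458 genes measured.

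The highest Lefty2 bin stood above 85.6% of valued bins at 0 h and the highest at 24 h stood above 6.29%. Of the 3861 bins at least as high as 7.87 at 0 h, 5.00% had no value at 24 h, and of the 3668 valued at both times 13 (0.354%) had a relative value as low as the first Lefty2 bin. The 2 bins that shared 7.87 may carry 1 measurement. The gene Gm39714 touches the first bin, and without bins that touch other genes no value remains. Leaving out the highest bin gave -0.29, and 25 kb flanks gave -0.48. The bin score came to 10 before induction and 3 after it.

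In iPSCs the Lefty2 window held 4 H3K27ac peaks, 2 below the gene and 2 beyond it, and none over the gene body. One KLF4 peak lay 4406 bases below the lower end of the gene, in the bin with the relative value of -1.52, and overlapped an H3K27ac peak. The other lay 4027 bases beyond the upper end without one.

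Lefty1 (chromosome 1, 180935022 to 180938401) encodes a close relative of Lefty2 and is its neighbour on the chromosome. The bin that holds the gene was in neither ESC list, and the bins on either side were listed without a value, with a score over the window of 2 before and 1 after induction. No KLF4 peak lay in its window, the only such gene of the 10. The nearest was 23024 bases away. A single H3K27ac peak of 148 bp, below the lower end of the gene, was all that iPSCs had there. The treatment of reads that match both Lefty genes is not stated by the labels, so the values at the bodies of these related genes are uncertain.

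**Figure D2:**
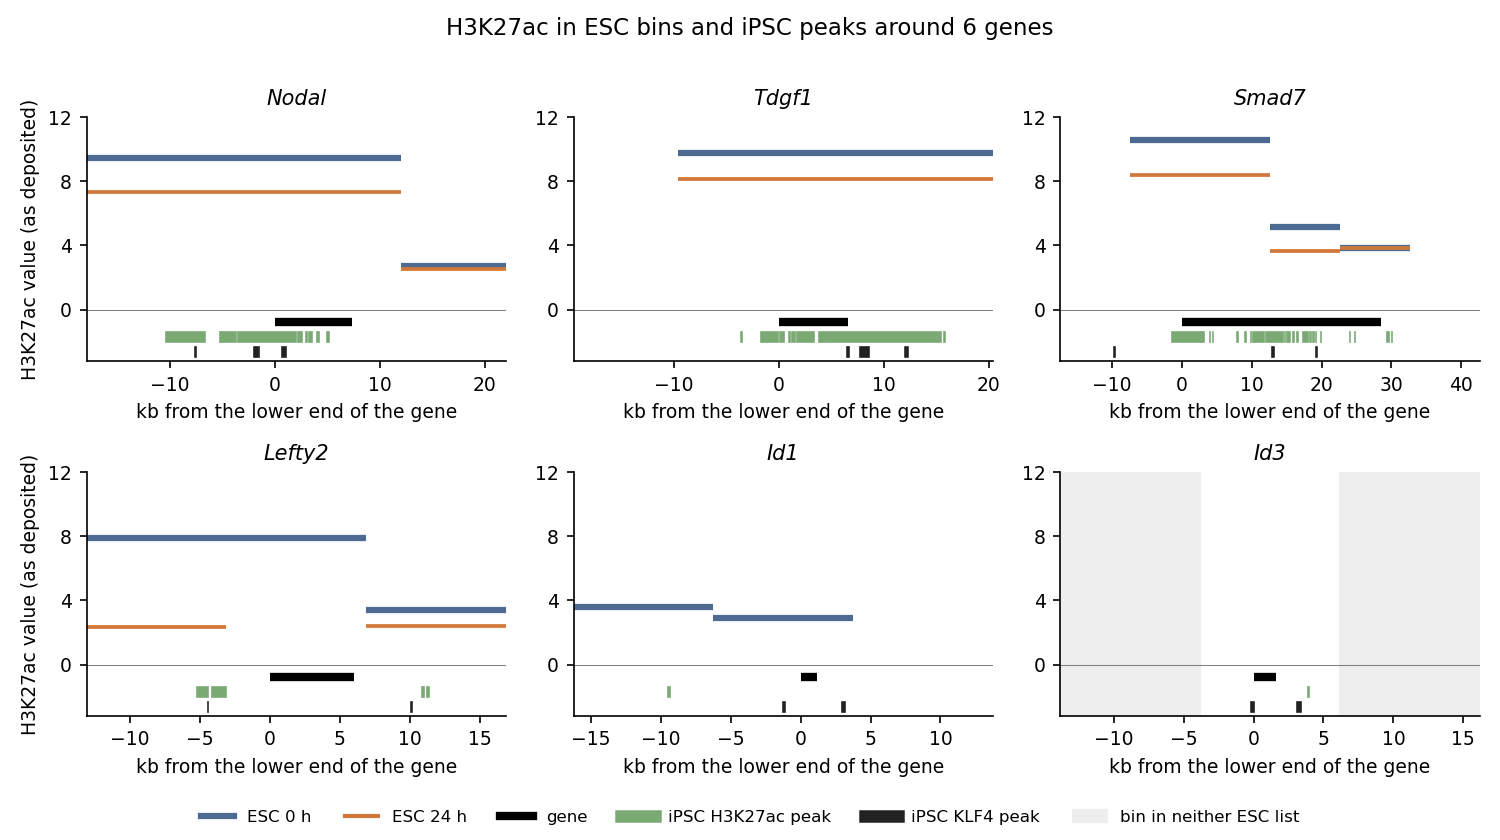
Values and peaks around 6 genes. Horizontal lines are the H3K27ac values of 10 kb ESC bins at 0 h (blue) and 24 h (orange; vertical axis, as deposited), placed by distance in kb from the lower end of the gene, with the gene (thick black), iPSC H3K27ac peaks (green) and iPSC KLF4 peaks (short black marks) beneath. Grey marks bins in neither ESC list, and a bin with no line and no grey had no value. At Lefty2 the line at 7.87 is replaced by 2.35 or by none, and both Id1 lines are at 0 h only.

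Smad7 (chromosome 18, 75367365 to 75395935), the intracellular inhibitor of the receptors, had the highest single value of the 10 genes. Its bins had 10.6, 10.6, 5.14 and 3.87 at 0 h and 8.39, 8.39, 3.63 and 3.85 at 24 h, in order along the gene, with a listed bin without a value at each end. The relative values were -0.11, -0.11, -0.28 and 0.22, so the middle and the far end of the gene differed in sign, with a mean of -0.07 (SD 0.21 over 4 bins). The bins that shared 10.6 may carry 1 measurement, and with them counted as 1 bin the mean was -0.06. The bin score over the window was the highest of the 10 genes, 62 before and 52 after induction. Most of the difference lay in the bin of the lower gene end, with 25 and 18. In iPSCs 25 H3K27ac peaks lay in the window, more than at 99.3% of protein-coding genes. Of 3 KLF4 peaks, both peaks inside the gene overlapped H3K27ac, and the one 9591 bases below it did not.

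Skil (chromosome 3, 31095058 to 31122923), the repressor of SMAD targets, had 1 valued bin, at its lower end, with 5.32 at 0 h and 4.75 at 24 h and a relative value of 0.06. With 1 bin there is no spread. The summed score was 6 at both times. Of 2 KLF4 peaks near that end, the one inside the gene lay within an H3K27ac peak and the one 310 bases below the gene did not. Both were in the valued bin.

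Bmp4 (chromosome 14, 46383525 to 46390669), the BMP ligand gene, had none of its 4 bins in either ESC list and no iPSC H3K27ac peak, the only gene of the 10 without one. It nevertheless had 2 KLF4 peaks in iPSCs, centred 7 and 8053 bases before the gene start. The first is the peak over the promoter sequence printed above. Since an unlisted bin is not measured, absence of acetylation in ESCs was not shown.

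Id1 (chromosome 2, 152736251 to 152737410), the best known BMP target, had values at 0 h and none at 24 h. The bin of the gene had 2.87 and the bin below it 3.61 at 0 h, and both were listed at 24 h without a value. Of 12259 protein-coding genes with a valued bin at 0 h, 7.45% had none left at 24 h. Both Id1 values were low to begin with, below the median of 4.65. Of the 8789 bins with a 0 h value of 2.5 to 4, 24.2% had no value at 24 h, so a single loss at this level was common.

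The bin score at Id1 was 6, 7 and 5 in the 3 bins at 0 h and 2, 1 and 2 at 24 h, lower in each, with sums of 18 and 5. The 24 h share of the sum was 21.7% (exact 95% interval 7.46 to 43.7%, for counting error only and as if the score counted independent events), against 47.5% over all bins. Of the 11498 genes with a sum of at least 20 over both times, 27 had a lower share. In iPSCs 2 KLF4 peaks flanked Id1, 1138 bases below and 1735 bases beyond it, and neither overlapped H3K27ac. The 1 H3K27ac peak in the window was 173 bp wide.

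Id2 (chromosome 12, 25093799 to 25096092) had 5.57 and 4.18 at 0 h and 4.73 and 3.61 at 24 h in the bin of the gene and the next one. The relative values were -0.01 and 0.02 (mean 0.0037, SD 0.02 over 2 bins), and 49.1% of all genes with a relative value were lower. The summed score was 20 and 16. It had 3 H3K27ac peaks in iPSCs, and its 1 KLF4 peak lay 9649 bases below the gene and overlapped none of them. With 25 kb flanks its relative value was 0.22 (SD 0.49 over 6 bins).

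Id3 (chromosome 4, 136143822 to 136145392) had 1 listed bin of 3, at 0 h only and without a value, with a score of 1. In iPSCs it had 2 KLF4 peaks, one over the promoter printed above and one centred 3226 bases after the gene start, and neither overlapped its single H3K27ac peak of 123 bp. Of the 3 Id genes, only Id2 had H3K27ac values at both times, and its nearest KLF4 peak was the farthest, at 9649 bases against 1138 at Id1 and 0 at Id3. Nodal, Tdgf1, Smad7 and Skil had a KLF4 peak touching the gene and also had values at both times. A link of acetylation with distance to KLF4 was not tested.

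**Figure D3:**
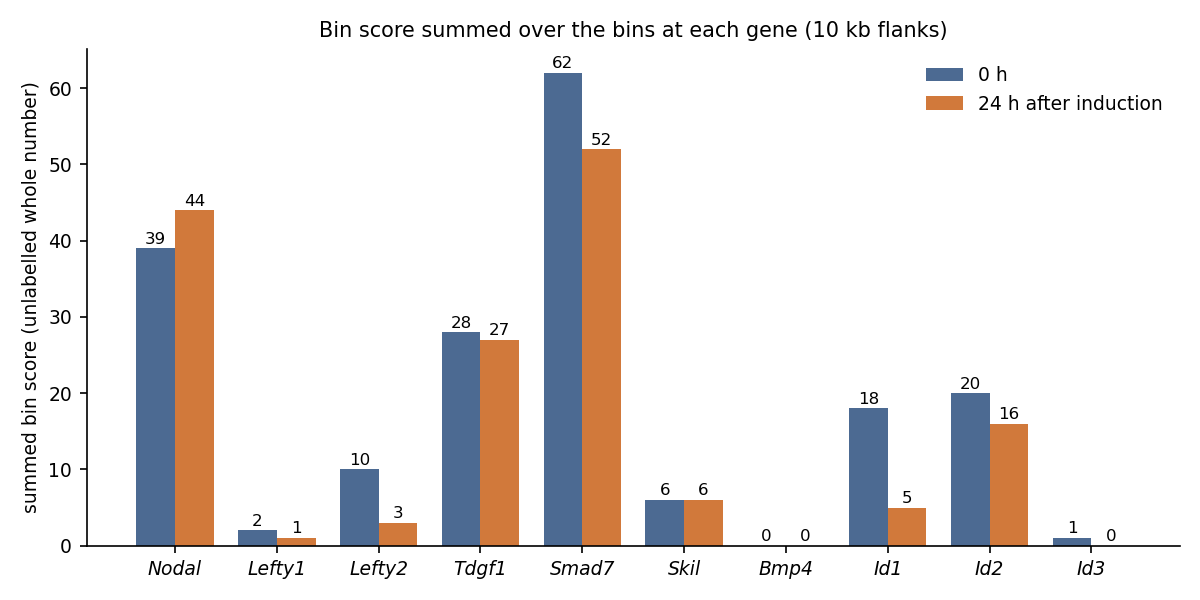
Bin score, an unlabelled whole number per 10 kb ESC bin, summed over the bins of each gene and its 10 kb flanks (vertical axis) at 0 h (blue) and 24 h (orange). Sums are printed above the bars. Id1 goes from 18 to 5 and Lefty2 from 10 to 3, while Nodal goes from 39 to 44.

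Over the 10 genes the bin scores added up to 186 before and 154 after induction, a 24 h share of 45.3%, close to the 47.5% of all bins. Of the 5 genes with a sum of at least 20 over both times, Smad7, Id1 and Id2 were below the share of all bins, as were 44.9% of the 11498 such genes. Nodal, at 53.0% (exact 95% interval 41.7 to 64.1%), and Tdgf1, at 49.1% (35.4 to 62.9%), were above it, but both intervals include it. The intervals of Smad7 (36.3 to 55.2%) and Id2 (27.9 to 61.9%) include it too. The score of Lefty2 had a share of 23.1% (exact 95% interval 5.04 to 53.8%), whose interval includes the share of all bins. In the bin of the gene alone the score was 2 at 0 h and the bin was not listed at 24 h.

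In order of the highest value at 0 h the genes were Smad7 (10.6), Tdgf1 (9.79), Nodal (9.43), Lefty2 (7.87), Id2 (5.57), Skil (5.32) and Id1 (3.61). At 24 h the order was Smad7 (8.39), Tdgf1 (8.16), Nodal (7.34), Skil (4.75), Id2 (4.73) and Lefty2 (2.38). Neighbours in these orders cannot be told apart beyond error, because no replicate spread exists. The SD over the bins of a gene reached 3.55 for Smad7 and 3.35 for Nodal at 0 h. It is spread along the locus and does not measure the error of the highest value. Lefty2 was above Id2 and Skil at 0 h and below both at 24 h.

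**Figure D4:**
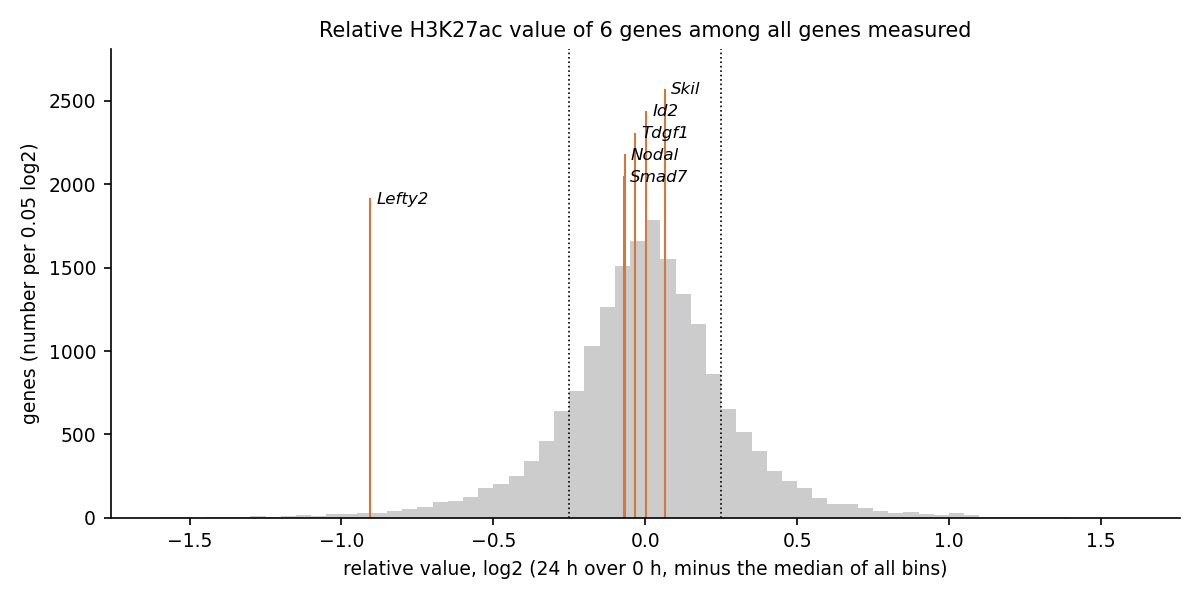
Number of genes (vertical axis) by relative H3K27ac value (horizontal axis, log2 of 24 h over 0 h minus the median of all bins, in steps of 0.05, with values beyond 1.6 either way counted in the end bars). Orange lines mark the 6 genes with a value and dotted lines -0.25 and 0.25. Lefty2 stands at -0.91 in the lower tail, and the other 5 lie between -0.07 and 0.06.

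KLF4 peaks were present at 9 of the 10 genes, against 53.2% of protein-coding genes and 36.9% of all genes, and H3K27ac peaks at 9, against 60.4% and 42.8%. The 10 genes were shorter than most, with a median of 6276 bp against 17329 bp for protein-coding genes. No gene had more than 3 KLF4 peaks. Of the 20 KLF4 peaks, 10 overlapped H3K27ac (50.0%, exact 95% interval 27.2 to 72.8%), and the share over all KLF4 peaks was 48.7%. All 6 at Nodal and Tdgf1 overlapped, with 2 of 3 at Smad7 and 1 of 2 each at Lefty2 and Skil. None of the 7 at Bmp4, Id1, Id2 and Id3 did. With a distance of up to 1 kb allowed, the share over the 20 peaks was 65.0%, and the peaks added were at Lefty2, Skil and Id3. The share over all KLF4 peaks at that distance was not computed. Whether the split by direct overlap between the genes of the Nodal pathway and the BMP genes is more than their number would give was not tested.

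Of the 16 bins of these genes valued at both times, the 8 that hold a KLF4 peak anywhere in the bin, 1 of them an Id2 bin whose peak lies beyond the 10 kb flank, had relative values from -1.52 to 0.06 with a median of -0.08. The 8 without one ranged from -0.13 to 0.22 with a median of -0.07. The 2 groups of bins overlapped, and bins of 1 gene that share a value are not independent. Over all bins the medians were -0.08 with KLF4 and 0.06 without.

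The other genes of the pathways were taken from 5 lists with 55 genes, of which 31 had a relative value, with a median of -0.01. At -0.25 or lower were 3 of them and at 0.25 or higher 2, beside 14.7% and 15.2% of all genes. KLF4 peaks lay at 38 of the 55 and H3K27ac peaks at 34, beside 53.2% and 60.4% of protein-coding genes.

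Among ligands and the enzymes that process them, 2 of 8 measured genes were past the lower threshold and none past the upper. These were Furin (-0.59, from 1 bin) and Pcsk6 (-0.32, SD 0.43 over 4 bins), which encode the convertases that cleave the Nodal precursor. The highest values were 0.12 at Gdf1 and 0.07 at Inhbb, which encodes an activin subunit. Bmp7 had 5 KLF4 peaks, and Tgfb1 and Inhbb had 2 each. None of the 4 measured receptors was past either threshold, with Bmpr2 at -0.06 and Acvr1b, a receptor for Nodal and activin, at 0.03. Acvr2b was lowest at -0.245 (1 bin), just inside the threshold, and Bmpr1a, a BMP type I receptor, was at -0.01. Acvr1b, Acvr2a and Bmpr2 had 2 KLF4 peaks each.

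None of the 7 measured SMADs and partners was past a threshold. Smad3 (-0.20) and Smad6 (-0.12) were lowest, and Smad9 (0.23, from 1 bin) and Trim33 (0.21) highest. Foxh1, the DNA-binding partner of SMAD2, had 3 KLF4 peaks, and Smad6 and Trim33 had 2. Among 10 measured antagonists and inhibitors, 1 was lower, Bambi (-0.26, SD 0.05 over 2 bins), which encodes a decoy receptor. Tgif2, a repressor, was at -0.24. Chrd (0.39, SD 0.55 over 2 bins) and Fst (0.29, from 1 bin), which encode the secreted antagonists chordin and follistatin, were higher. Ski had 5 KLF4 peaks and Pmepa1 3.

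None of the other targets with a relative value was past a threshold, and Gsc was at 0.01. Id4, a relative of Id1, had 2 KLF4 peaks and a bin score of 5 and 2. It had values at 0 h only, with a mean of 2.39 over 2 bins. Both values were below the median of 4.65, and how often bins this low lose their value was not computed. The only other pathway gene with a 0 h value and none at 24 h was Smad2, which had 7.98. These are 2 of the 34 pathway genes with a 0 h value, against 7.45% of 12259 such protein-coding genes. A pattern shared by Id1 and Id4 was not tested. In the opposite direction Acvr1 and Dusp9 had values at 24 h only, up to 2.34 and 6.90. The share of all genes with values at 24 h only was not computed.

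**Figure D5:**
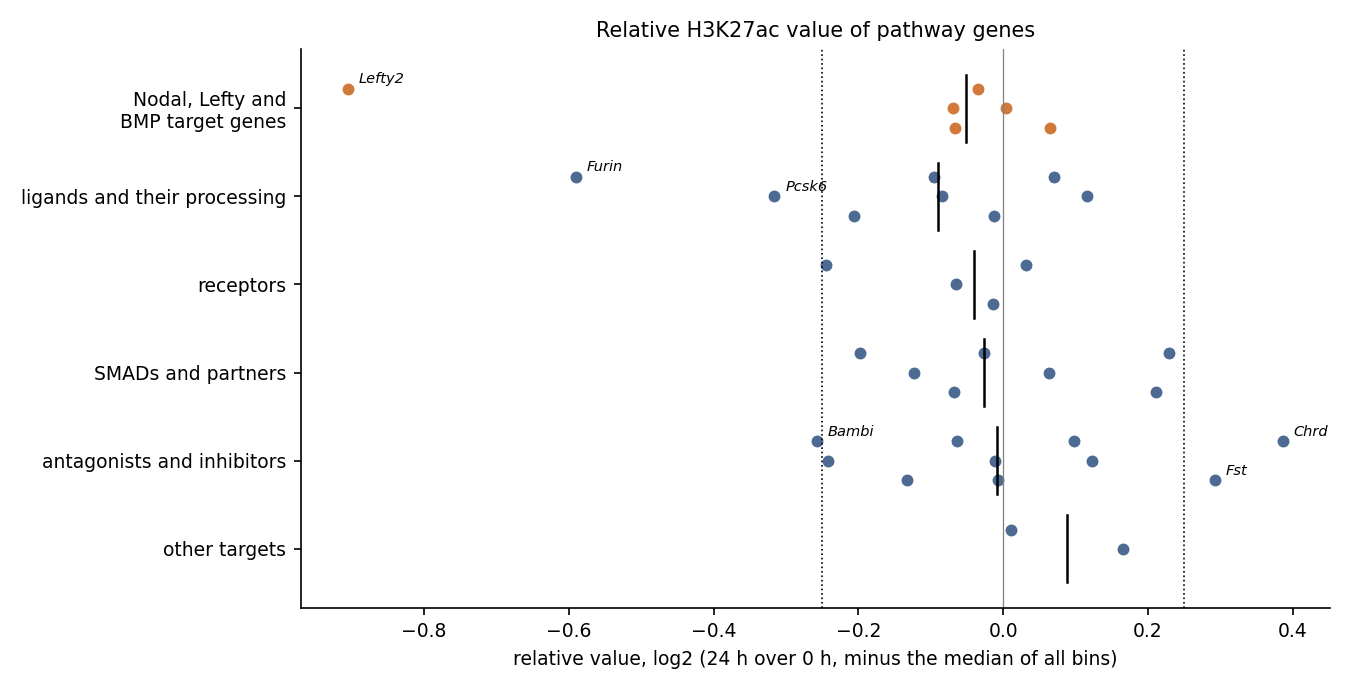
Relative H3K27ac value (horizontal axis, log2 of 24 h over 0 h minus the median of all bins) of each measured gene in 6 lists (vertical axis). Black bars are list medians, dotted lines -0.25 and 0.25, and genes past them are named. Lefty2 (-0.91) is lowest and Chrd (0.39) highest.

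Over 5 readouts (0 h level, relative value, KLF4 peaks, 0 h score and 24 h score share), the gene with the pattern most like that of Nodal was Fam110b, among the 6853 genes that had 3 or more bins with 0 h and 24 h values. The distance was 0.355 in units of the SD of each readout over genes. Fam110b had a relative value of -0.03, 3 KLF4 peaks and a score of 35 at 0 h and 39 at 24 h. The same could not be computed for Lefty1, Bmp4 and Id1, which had no such bins.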

How the data were processed

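The deposited data are 4 lists, 1 per immunoprecipitated group of 2 replicates, combined by the authors. The ESC lists give 10 kb bins with a deposited score (whole numbers of unstated meaning), marks of unstated meaning and a deposited H3K27ac signal of unstated scale. The iPSC lists give peak positions. The tools named in the submitters' processing notes are MACS2, Bowtie2, bedtools and SAMtools, with the build mm10, without versions or settings. Read depth is unknown, and the input samples were not analysed here. Columns of per-sample values left unused numbered 0.

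Genes came from RefSeq GRCm38.p6, whose primary assembly mm10 shares. With Python 3.11.15, pandas 2.3.3, numpy 2.4.6 and scipy 1.17.1, bins and peaks touching a gene ± 10 kb were assigned to it. Relative values used bins valued at both times and a threshold of 0.25 log2 either way. Their calculation was tested on simulated shifts larger than this threshold, with independent noise per bin, in genes with several valued bins. That test does not cover genes with few valued bins or bins that share a value. Shares have exact (Clopper-Pearson) 95% intervals, for counting error only. Within each list the text names genes past the threshold, the 2 lowest, the 2 highest and those with the most KLF4 peaks. Alternatives were other flanks, centres, thresholds, bin choices and peak overlaps. The members and lists were chosen with earlier results of these data known. Results for some genes that this rule would name are not reported here.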

Additional observations from a re-analysis of the deposited data

Results flagged for a closer look

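A column of marks in the ESC lists, the sixth, whose meaning the lists do not give, was set in 7 of the 29 listed bins of the 10 genes, against 0.857% of all listed bins. The marked bins belonged to Lefty1, Lefty2, Tdgf1, Smad7 and Id1, which is 5 of the 9 genes with a listed bin, against 1.62% of protein-coding genes with a listed bin. Both bins of Id1 that had a value at 0 h carried it, as did the Lefty2 bin with the relative value of -1.52. The Lefty2 bin that holds the gene, with 7.87 at 0 h and not listed at 24 h, did not. Nor did the Lefty2 bin at -0.29. The marked bins of Tdgf1 were at -0.03 and that of Smad7 at -0.11, and the marked Lefty1 bin had no value. The same column also marked 5 of the 7 pluripotency markers and the pathway genes Ski and Tgif1. It marked the fibroblast gene Loxl1, which is 1 of 4 fibroblast genes with a listed bin. The marks were the same in both ESC lists in every shared bin.

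The fifth column, also of unstated meaning, was set in 7 of the 29 bins, against 2.84% of all bins. These were all 6 bins of Smad7 and 1 of Id3.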

How the results depend on the processing

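One gene, Lefty2, was at -0.25 or lower. With 25 kb flanks there were 3 such genes: Lefty2 (-0.48), Id1 (-0.43) and Id3 (-0.27), the last 2 from 1 bin each. More genes were measured at this setting, because Id1, Id3 and Lefty1 (0.18) have no relative value with 10 kb flanks. With the lowest value of the list in place of a missing one there were 2, Lefty2 (-1.42) and Id1 (-1.16). With bins of the gene body alone, and with bins that other genes touch left out, there were 0, because no Lefty2 bin valued at both times remained. No share over all genes was computed for these alternatives, so these counts have no background. The number of genes with an iPSC H3K27ac peak was 9 with 10 kb flanks and 4 without flanks. For iPSC KLF4 peaks the number was 9 with 10 kb flanks and 6 without. Shares over all genes without flanks were not computed. Relative values over all alternatives ranged from -1.42 to -0.29 for Lefty2, -0.13 to 0.09 for Nodal, whose sign changed with 25 kb flanks, and -0.01 to 0.22 for Id2. The relative value of Smad7 ranged from -0.19 to -0.05, that of Tdgf1 from -0.05 to -0.01 and that of Skil from 0.06 to 0.08. Of the values of single genes under these alternatives, 70 stayed within 0.1 log2 or within their exact interval and 8 did not. For scores this says little where sums are low. The interval was 0 to 97.5% for Id3, whose share went from 0% to 42.9% with 25 kb flanks, and 0.84 to 90.6% for Lefty1. Alternatives that left a gene without a value were not counted. No paired analysis was possible because the lists hold no values per replicate, and leaving out a replicate was not run for the same reason. The 24 h score share of Lefty2 was 23.1% with 10 kb flanks and 0% with bins of the gene body alone, where its only bin was not listed at 24 h. A bin without a value limits Lefty1, Bmp4, Id1 and Id3.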
